A study of Homo sapiens with 12 samples.

Results

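The transcripts of 39 genes of DNA replication and the G1/S transition were followed in NCM460 cells, a human cell line labelled as normal colonic epithelium. The genes were taken by symbol from a table of 58735 genes, and all 39 were present. The rule itself uses symbols and no measured value, but the members were chosen with earlier results of these data known. The study sequenced poly(A)-selected RNA in 12 libraries, 3 in each of 4 groups. The first group was kept in medium, the second received TNF-α, and the third received TNF-α together with Bufotenidine, which the study calls 5-OH-TMT (5-hydroxy-N,N,N-trimethyltryptamine). The genotype of these 3 groups is given as WT. The fourth group carried an HTRA2 knockdown and also received TNF-α. HTRA2 encodes a mitochondrial serine protease, and the study made its siRNA knockdowns by transfection. The study's figures set its sequenced knockdown against a group named si-CTRL, but no library here carries that label, and TNF-α is the reference used. The labels name no control siRNA for the TNF-α libraries, so the knockdown and the transfection itself cannot be told apart here. It is not stated whether the 3 libraries of a group came from separate cultures, and the p-values therefore measure the spread between these libraries, which may be technical.

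Before S phase, the origin recognition complex with CDC6 and CDT1 loads the MCM2-7 helicase onto replication origins. The helicase is activated by CDC45 and the GINS complex, primers are laid down by DNA polymerase α with its primase, and synthesis proceeds behind PCNA, the sliding clamp that is placed by the RFC clamp loader. Many of these genes are transcribed in late G1 by E2F factors, which RB holds inactive until cyclin D-CDK4/6 and cyclin E-CDK2 phosphorylate it, while the CDK inhibitor p21 (CDKN1A) acts against this step. Their mRNA is therefore commonly read as a measure of cells that pass from G1 into S phase.

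Promoter sites of E2F factors carry a short T-rich and GC-rich core. The promoter windows of 34 of the 39 genes were found in the RefSeq table (GRCh38.p14, 250 bases before to 50 bases after the gene start), and they were searched on both strands for the 4 core forms TTTCCCGC, TTTGGCGC, TTTCGCGC and TTTGCCGC. At least 1 match lay in 19 of the 34 windows, or 55.9%, against 908 of all 27305 windows of the same length, or 3.33%, and 562 of the 10548 windows of genes tested here, or 5.33%. A match describes letters in a window and is not evidence of a bound site. The stretches around the matches of 8 genes are shown, 5 from genes that fell clearly in the knockdown (MCM6, MCM3, UHRF1, GINS2 and E2F1), and those of PCNA, RFC3 and LIG1, whose levels differed less. Each is written 5′ to 3′ on the strand of its gene, with the matches in capitals. MCM6 lies on the minus strand, and its stretch at chr2:135876502-135876615 holds 2 runs in which a match on one strand overlaps a match on the other. The stretches of MCM3 (minus strand, chr6:52284889-52284936) and PCNA (minus strand, chr20:5126654-5126701) hold 1 match each. The 5 shorter stretches are those of GINS2 (minus strand, chr16:85688968-85688995), UHRF1 (plus strand, chr19:4909477-4909500), E2F1 (minus strand, chr20:33686394-33686422), RFC3 (plus strand, chr13:33818084-33818111) and LIG1 (minus strand, chr19:48170441-48170468), and E2F1 has 2 separate matches. These 5 stretches lie over exons of their own gene in GENCODE 29, where transcripts are annotated to start before the end of the stretch, among them 4 of the 7 transcripts of UHRF1.
MCM6: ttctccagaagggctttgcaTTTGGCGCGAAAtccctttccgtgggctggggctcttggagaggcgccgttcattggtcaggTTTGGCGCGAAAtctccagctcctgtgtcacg
MCM3: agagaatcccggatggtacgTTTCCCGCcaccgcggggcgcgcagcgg
PCNA: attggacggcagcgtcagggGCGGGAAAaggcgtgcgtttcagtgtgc
GINS2: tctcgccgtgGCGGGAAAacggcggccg
UHRF1: ccgagttttcGCGGGAAAaaaatc
E2F1: tttcGCGGCAAAaaggaTTTGGCGCgtaa
RFC3: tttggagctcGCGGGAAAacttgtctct
LIG1: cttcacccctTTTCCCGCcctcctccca

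**Figure D1:**
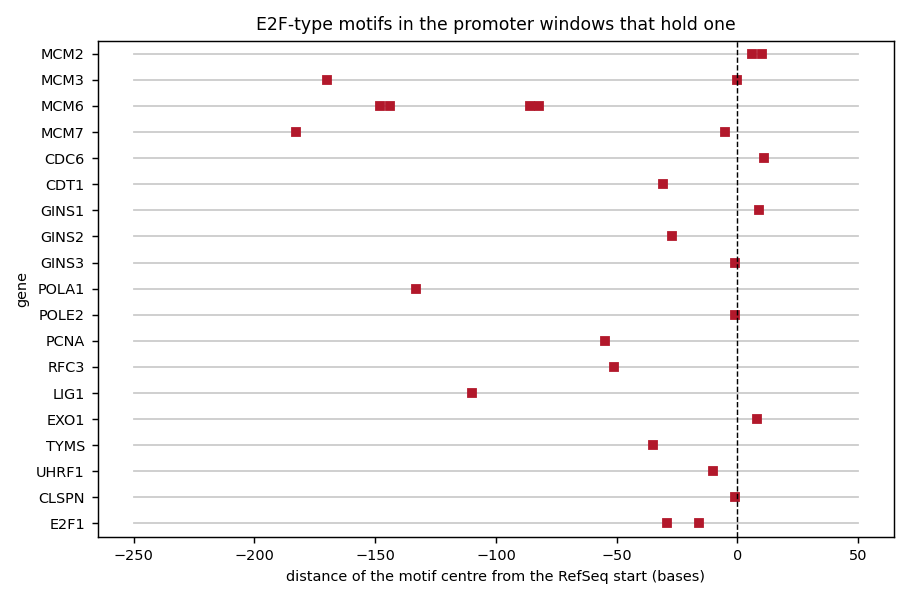
Position of each matching motif (square, at the motif's centre) relative to the RefSeq gene start (dashed line), in bases, for the 19 genes whose window of 250 bases before to 50 bases after the start (grey line) holds a match. The matches of MCM6 lie in 2 overlapping pairs, and those of MCM7 and MCM3 lie both far from and near to the start.

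Every library held between 31008429 and 37624399 reads on genes, and the 39 genes received 66 to 19995 reads each per library. HTRA2 stood at 7.44, 7.18 and 7.22 FPKM in the 3 knockdown libraries and at 15.4, 14.0 and 14.2 FPKM with TNF-α, a difference of -0.98 on the log2 scale (SE 0.087, limma adjusted p = 2.77e-05). The 5 epithelial markers (EPCAM, CDH1, KRT8, KRT18 and KRT19) were all above 1 FPKM, with a sum of 2120 to 2690 FPKM per library, whereas the 5 markers of intestinal epithelium (CDX1, CDX2, VIL1, LGALS4 and CDH17) reached at most 0.194 FPKM in sum and CDX2 was at 0 in every library. The basal and squamous markers KRT5, KRT14 and TP63 summed to 160 to 238 FPKM. Mitochondrially encoded genes took 10.4% of the FPKM in knockdown library 2 and 12.7% in TNF-α library 3, against 13.9% to 16% in the others.

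In the HTRA2 knockdown, the mRNA of most of the 39 genes was lower than with TNF-α alone. Of the 39 genes, 34 fell against TNF-α at an adjusted p under 0.05 in limma's moderated test, 0 rose, and all 39 had a lower mean. Over all 18079 genes tested, 8.08% fell and 9.35% rose by the same rule. In 37 of the 39 genes every knockdown library lay below every TNF-α library, which held for 16.4% of all genes. The median difference of the 39 genes was -0.66 on the log2 scale of FPKM + 0.1, with a range from -1.08 to -0.16, and the median of all genes was 0.00. Only 3 of them (CCNE2, MCM6 and UHRF1) passed the threshold that the study set for DEGs, a change of 2-fold or more that also passes at 0.05 before adjustment, which 4.23% of all genes passed. In bulk RNA, fewer cells in S phase and less of these mRNAs per cell cannot be told apart. With 3 libraries against 3, an exact permutation test of a single gene cannot give a two-sided p below 0.1, so the calls rest on the variance that limma shares between genes.

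**Figure D2:**
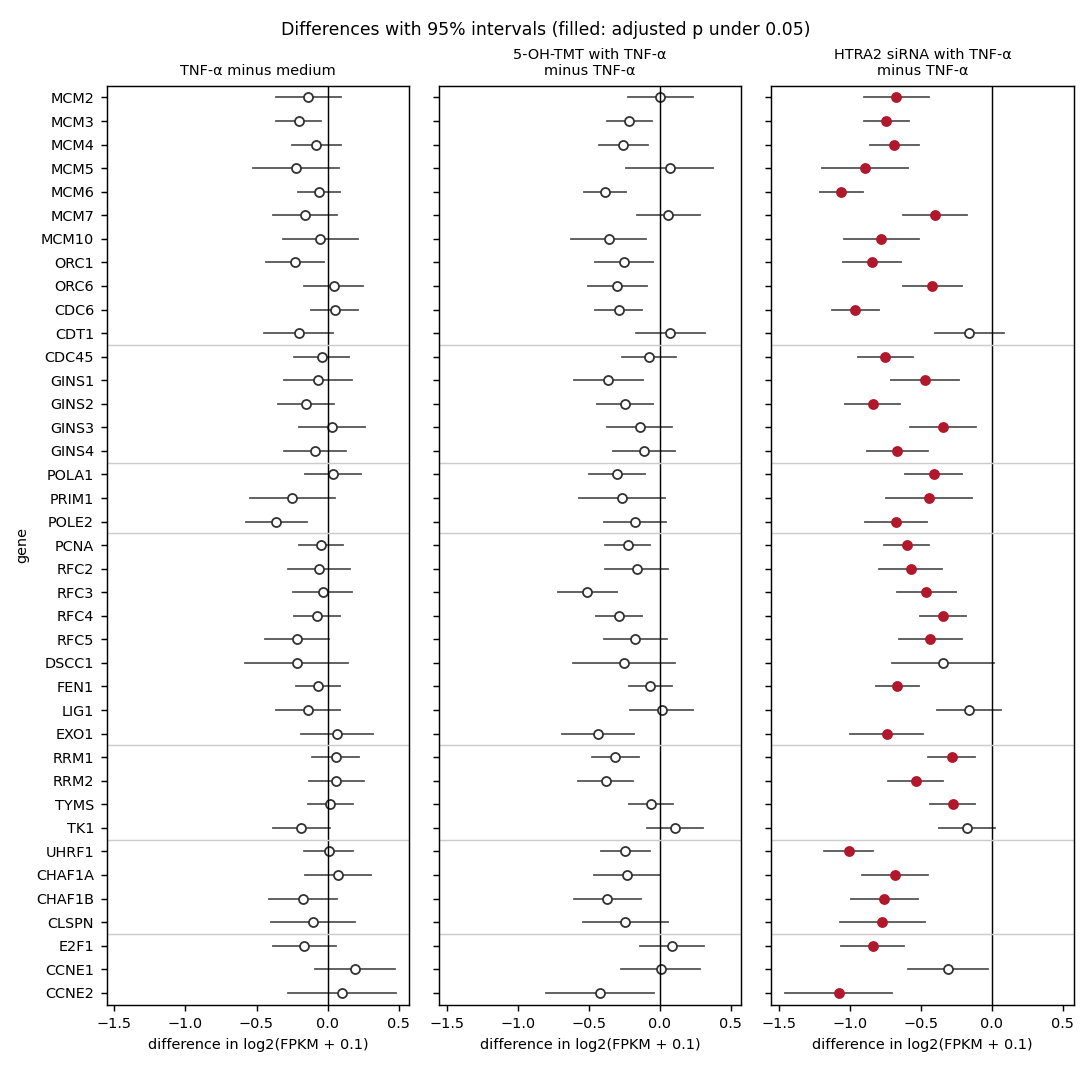
Difference in log2(FPKM + 0.1) of the 39 genes, ordered by role, for TNF-α against medium, 5-OH-TMT with TNF-α against TNF-α, and HTRA2 siRNA with TNF-α against TNF-α. Points are estimates from the fit over all genes, lines are 95% intervals and filled points have an adjusted p under 0.05. Filled points number 0, 0 and 34 in the 3 panels, and all 34 lie below 0.

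Of the 11 genes of the MCM helicase and its loading, 10 fell in the knockdown. MCM6, a subunit of the helicase ring (ENSG00000076003, chr2:135839626-135876426 in hg38, the build of the table), stood at 27.2, 26.8 and 27.9 FPKM with TNF-α and at 12.5, 13.6 and 13.0 FPKM in the knockdown. The groups were far apart, and MCM6 fell by 1.06 on the log2 scale (SE 0.068, limma adjusted p = 5.31e-06), to 0.480 of its level. CDC6, which loads the ring onto origins (ENSG00000094804, chr17:40287633-40304657), read 20.02, 21.3 and 20.3 FPKM with TNF-α and 9.44, 11.3 and 10.8 FPKM in the knockdown. Its fall of 0.96 (SE 0.076, adjusted p = 1.52e-05) was close to that of MCM6. ORC1, the largest subunit of the origin recognition complex, read 15.0, 16.6 and 13.5 FPKM with TNF-α and 8.09, 7.88 and 9.05 FPKM in the knockdown, and fell by 0.84 (SE 0.093, adjusted p = 0.000111). MCM5 varied more between libraries, at 35.1, 40.5 and 31.1 FPKM with TNF-α and 20.01, 15.3 and 22.5 FPKM in the knockdown. Its groups still did not overlap, and it fell by 0.89 (SE 0.14, adjusted p = 0.00107).

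MCM2, another ring subunit, read 34.3, 40.4 and 35.3 FPKM with TNF-α and 22.0, 21.7 and 25.2 FPKM in the knockdown, and fell by 0.67 (SE 0.10, limma adjusted p = 0.00104). MCM10, a helicase activator with few reads, was at 2.32, 2.04 and 2.60 FPKM with TNF-α and at 1.17, 1.46 and 1.29 FPKM in the knockdown, a fall of 0.78 (SE 0.12, adjusted p = 0.00104). MCM3 and MCM4 fell by 0.74 and 0.69, with TNF-α ranges of 41.8 to 46.9 and 70.8 to 82.8 FPKM and knockdown ranges of 26.0 to 27.0 and 42.9 to 49.8 FPKM. MCM7 and ORC6 moved least among those that passed, by -0.40 and -0.42, and both lost their calls in a fit to these 2 groups alone. CDT1, the partner of CDC6 in loading, did not pass: it read 27.9, 31.8 and 31.7 FPKM with TNF-α and 28.7, 23.7 and 29.6 FPKM in the knockdown, with overlapping groups and a difference of -0.16 (95% interval -0.40 to 0.084, adjusted p = 0.372). The subunits of the MCM2-7 ring thus differed in size of change, from -0.40 for MCM7 to -1.06 for MCM6, and these intervals did not overlap. Their order by FPKM was the same with TNF-α and in the knockdown, from MCM7 (89.4 to 104 and 64.5 to 83.8 FPKM) through MCM4, MCM3, MCM2 and MCM5 to MCM6, and only the neighbours MCM2 and MCM5 overlapped in both groups.

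CDC45 and the 4 GINS genes, which complete the active helicase, all fell in the knockdown. GINS2 (ENSG00000131153) read 10.8, 11.8 and 11.3 FPKM with TNF-α and 5.80, 6.77 and 6.23 FPKM in the knockdown, a fall of 0.84 (SE 0.090, limma adjusted p = 8.76e-05). CDC45 read 46.1, 51.9 and 45.4 FPKM with TNF-α and 26.2, 29.2 and 29.8 FPKM in the knockdown, a fall of 0.75 (SE 0.088, adjusted p = 0.000169). Both genes were clear of overlap. GINS4 fell by 0.66, GINS1 by 0.47 and GINS3 by 0.34, so the estimates for the 4 subunits of 1 complex ranged widely. GINS1 was the most abundant of the 4 per length (21.3 to 26.6 FPKM with TNF-α, 15.5 to 19.5 FPKM in the knockdown) and GINS3 the least in TNF-α (4.96 to 5.07 FPKM, then 3.48 to 4.71 FPKM). Of the polymerase genes, POLE2, a subunit of the leading-strand polymerase ε, fell by 0.67 and read 2.06 to 2.65 FPKM in the knockdown, while the primase subunit PRIM1 and the catalytic subunit of polymerase α, POLA1, fell by 0.44 and 0.41. The call of PRIM1 was narrow, at an adjusted p of 0.0452. That of GINS3 was lost in a fit to these 2 groups alone and with any 1 TNF-α library left out.

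Among the 9 genes of the clamp, its loaders and lagging-strand processing, 7 fell. PCNA read 71.6, 78.1 and 79.8 FPKM with TNF-α and 45.4, 52.2 and 54.0 FPKM in the knockdown. Every knockdown library was below every other library of the study, and the fall against TNF-α was 0.60 (SE 0.072, limma adjusted p = 0.000191), to 0.660 of its level. EXO1, a 5′ to 3′ exonuclease, fell by 0.74, with 5.92 to 6.69 FPKM under TNF-α and 3.28 to 4.32 FPKM in the knockdown. FEN1, the flap endonuclease that trims Okazaki fragments, fell by 0.67, with 43.8 to 47.4 FPKM under TNF-α and 27.4 to 29.4 FPKM in the knockdown. The clamp loader genes RFC2, RFC3, RFC5 and RFC4 fell by 0.57, 0.46, 0.43 and 0.34. DSCC1, a subunit of the alternative loader that acts in sister chromatid cohesion, did not pass. Its values were 5.69, 6.46 and 5.58 FPKM with TNF-α and 3.77, 6.41 and 4.08 FPKM in the knockdown, where library 2 alone lay within the TNF-α range, and its difference was -0.34 (95% interval -0.70 to 0.015, adjusted p = 0.178). LIG1, the ligase that seals Okazaki fragments, differed by -0.16 (95% interval -0.39 to 0.063, adjusted p = 0.321).

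The 4 genes of nucleotide supply had a median difference of -0.28, against -0.74 for the 11 genes of the helicase and its loading. RRM2, the regulated subunit of ribonucleotide reductase, read 21.2, 22.0 and 20.9 FPKM with TNF-α and 12.8, 16.5 and 14.9 FPKM in the knockdown, and fell by 0.54 (SE 0.089, limma adjusted p = 0.00154). Its partner RRM1 and thymidylate synthase (TYMS) each fell by 0.28, and read 33.9 to 40.5 FPKM and 13.3 to 14.6 FPKM in the knockdown. Thymidine kinase TK1, the most abundant of the 39 genes per length, read 234, 241 and 232 FPKM with TNF-α and 207, 198 and 222 FPKM in the knockdown. The groups did not overlap, but the difference of -0.18 (95% interval -0.38 to 0.023) missed the threshold at an adjusted p of 0.214.

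The 4 chromatin and checkpoint genes all fell. UHRF1, which brings the maintenance methyltransferase DNMT1 to newly replicated DNA (ENSG00000276043, chr19:4903080-4962154), read 30.5, 33.6 and 29.4 FPKM with TNF-α and 14.5, 15.8 and 15.9 FPKM in the knockdown. Its fall of 1.01 (SE 0.078, limma adjusted p = 1.48e-05) left 0.497 of its level. CHAF1B, a subunit of the histone chaperone CAF-1, read 5.77, 6.61 and 6.12 FPKM with TNF-α and 3.28, 3.41 and 4.19 FPKM in the knockdown, a fall of 0.76 (SE 0.11, adjusted p = 0.000626). Its partner CHAF1A fell by 0.68, with 14.3 to 17.9 FPKM under TNF-α and 8.68 to 11.1 FPKM in the knockdown. CLSPN, which encodes the checkpoint mediator claspin, read 4.41, 3.72 and 3.61 FPKM with TNF-α and 1.88, 2.60 and 2.31 FPKM in the knockdown, a fall of 0.77 (SE 0.14, adjusted p = 0.00238).

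Among the G1/S regulators, E2F1 and CCNE2 fell and CCNE1 did not pass the test. E2F1, a transcription factor of the G1/S programme (ENSG00000101412, chr20:33675683-33686404), read 27.3, 33.4 and 30.1 FPKM with TNF-α and 16.7, 14.6 and 19.6 FPKM in the knockdown. It fell by 0.84 (SE 0.10, limma adjusted p = 0.000204). CCNE2, which encodes cyclin E2 (ENSG00000175305), had the fewest reads of the 39 genes, with 75, 66 and 81 reads in the knockdown, and was at 1.04, 1.17 and 1.07 FPKM with TNF-α and at 0.473, 0.416 and 0.505 FPKM in the knockdown. Its fall of 1.08 had the largest error among these regulators (SE 0.17, adjusted p = 0.00127), with a 95% interval of -1.46 to -0.70. CCNE1, the gene of cyclin E1, read 2.43, 2.54 and 3.06 FPKM with TNF-α and 2.25, 1.91 and 2.25 FPKM in the knockdown. Its difference of -0.31 was smaller and had an adjusted p of 0.123, although its groups did not overlap. The difference between the cyclin E genes was not tested.

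**Figure D3:**
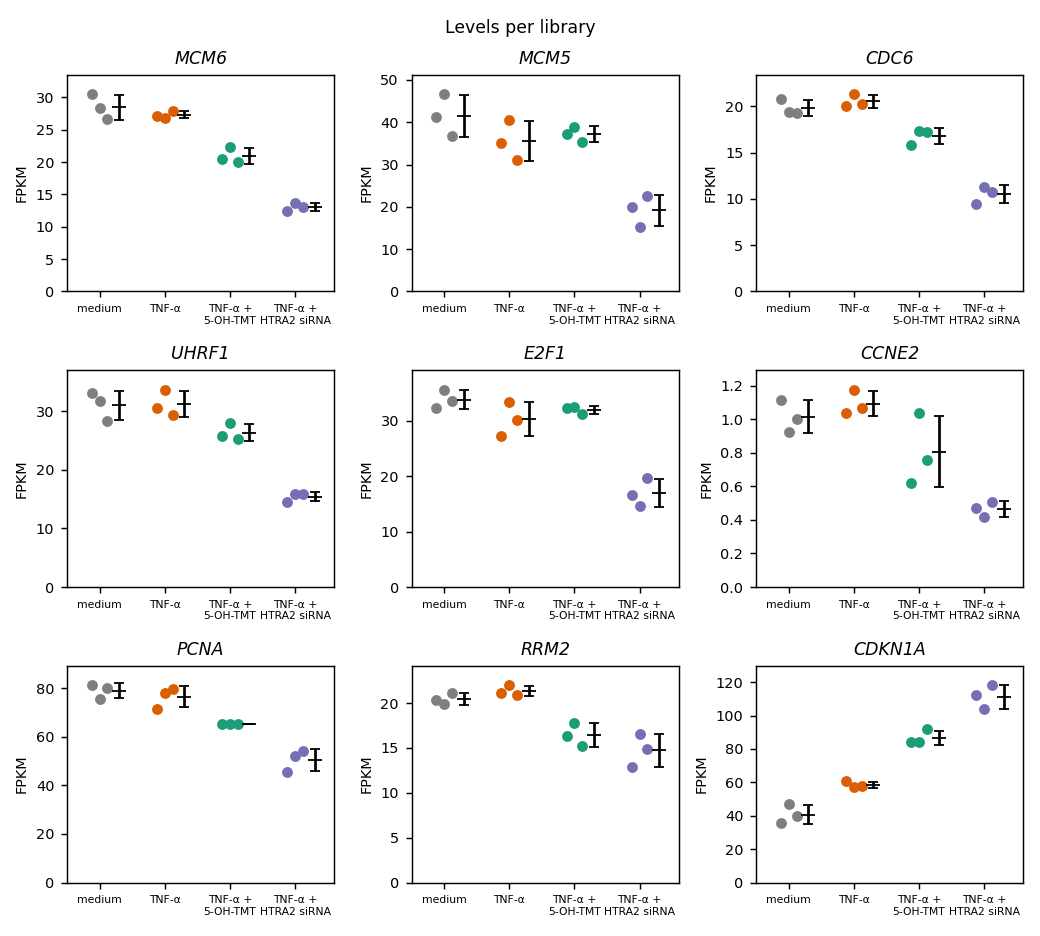
FPKM of 8 replication and G1/S genes and of CDKN1A in each of the 12 libraries (points, 3 per group), with the mean and SD of each group beside them (black). Knockdown libraries are the lowest in MCM6, MCM5, CDC6, UHRF1, E2F1, CCNE2 and PCNA, overlap the 5-OH-TMT libraries in RRM2, and are the highest in CDKN1A.

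Treatment with 5-OH-TMT was followed by lower means of many of these genes, but none passed the adjusted test. Of the 39 genes, 0 rose and 0 fell at an adjusted p under 0.05, where 0.0332% of all genes rose and 0.00553% fell. At an unadjusted p under 0.05, 19 were lower and 0 higher, and 10.5% of all genes were lower by that rule. Every 5-OH-TMT library lay below every TNF-α library in 21 of the 39 genes, against 15.5% of all genes, and above it in 1 (TK1), against 16.3%. The median difference of the 39 genes was -0.24 on the log2 scale, and 31 had a lower mean. None of the 39 met the DEG threshold, which 1.50% of all genes met. In a fit to these 2 groups alone, 7 of the 39 genes fell (CDC6, EXO1, MCM6, RFC3, RFC4, RRM1 and RRM2), and limma voom on the recovered reads called 3 (MCM6, RFC3 and RRM2). Calls over all genes rose as well, to 5.04% in the fit to 2 groups and 1.31% with voom, in either direction.

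The 4 genes with the smallest p in this comparison were MCM6, RFC3, RRM2 and RRM1. MCM6 read 20.4, 22.3 and 19.9 FPKM with 5-OH-TMT, below each of its TNF-α libraries, and differed by -0.39 (SE 0.068, limma adjusted p = 0.0630). RFC3, a subunit of the clamp loader, read 11.96, 12.1 and 11.8 FPKM with TNF-α and 7.93, 9.41 and 7.81 FPKM with 5-OH-TMT, a difference of -0.51 (SE 0.095, adjusted p = 0.0721). RRM2 read 16.3, 17.8 and 15.2 FPKM with 5-OH-TMT and differed by -0.38 (SE 0.089, adjusted p = 0.0922). RRM1 read 43.1, 42.3 and 47.2 FPKM with TNF-α and 36.3, 34.4 and 35.8 FPKM with 5-OH-TMT, a difference of -0.31 (SE 0.076, adjusted p = 0.0962). PCNA read 65.4, 65.2 and 65.4 FPKM with 5-OH-TMT, below the TNF-α libraries, and differed by -0.23 (adjusted p = 0.137).

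E2F1, MCM2 and MCM5 showed no such difference in their values. E2F1 read 32.4, 32.5 and 31.2 FPKM with 5-OH-TMT, within its TNF-α range of 27.3 to 33.4 FPKM (difference 0.09, 95% interval -0.14 to 0.31, limma adjusted p = 0.664). MCM2 and MCM5 read 37.9, 39.5 and 33.0 FPKM and 37.2, 38.96 and 35.2 FPKM with 5-OH-TMT. Both groups overlapped those with TNF-α, with differences of 0.00 (95% interval -0.22 to 0.23) and 0.07 (95% interval -0.23 to 0.37). CCNE2 differed by -0.42, at an unadjusted p under 0.05 in limma's test, and did not pass after adjustment. It spread widely with 5-OH-TMT, at 0.621, 1.04 and 0.759 FPKM, and its second library overlapped the TNF-α group.

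**Figure D4:**
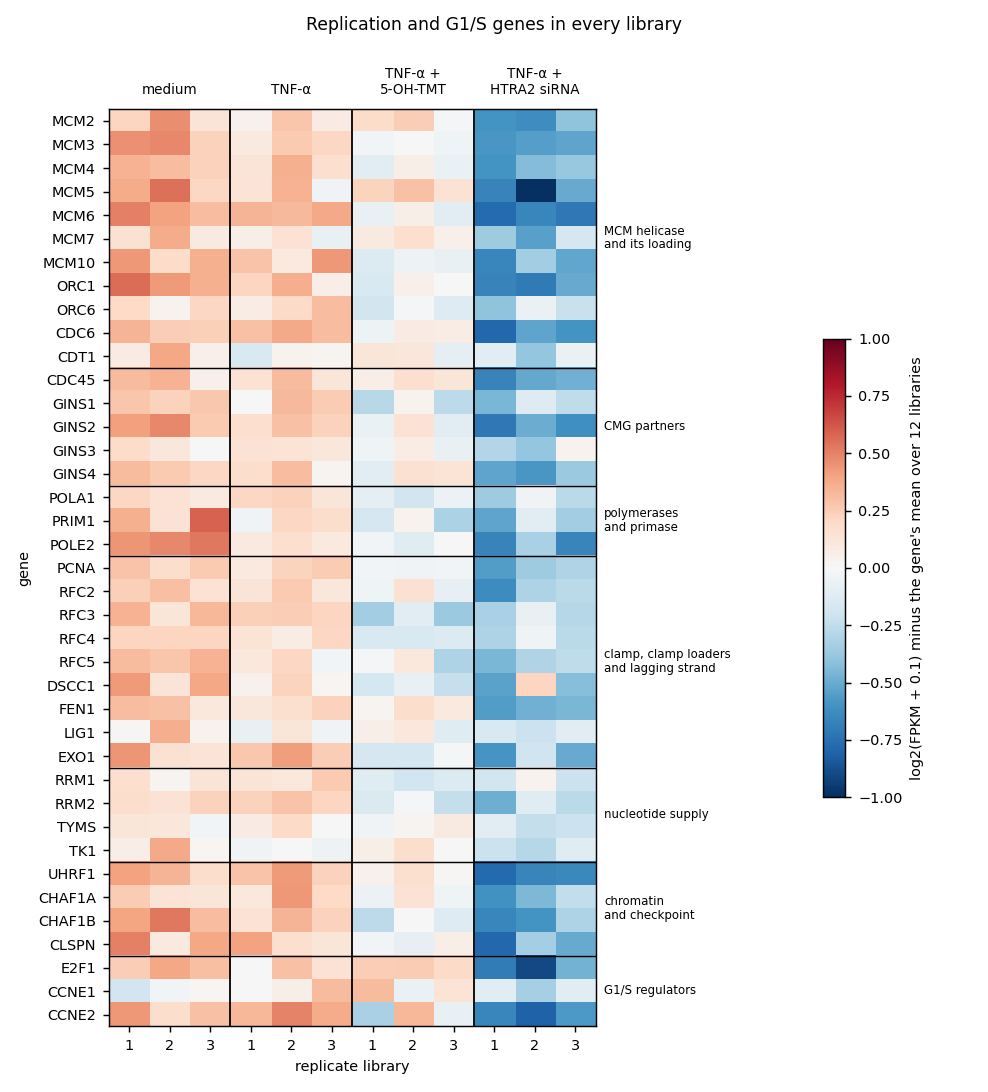
Level of each of the 39 genes (rows, grouped by role) in each of the 12 libraries (columns), as log2(FPKM + 0.1) minus the mean of the gene over all libraries, with red above and blue below that mean. The 3 knockdown libraries are blue for nearly all genes, with DSCC1, GINS3 and RRM1 above their mean in 1 library each, while the 5-OH-TMT libraries are near 0 or a pale shade in most rows.

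The knockdown libraries were also set directly against the 5-OH-TMT libraries, both of which received TNF-α. In that comparison 22 of the 39 genes were lower in the knockdown at an adjusted p under 0.05 and 0 were higher, where 7.43% of all genes were lower and 7.85% higher. All 22 had also fallen against TNF-α. In 26 of the 39 genes the knockdown libraries lay below every 5-OH-TMT library, as did 17.6% of all genes. The median difference was -0.41, and 0 of the 39 met the DEG threshold, against 3.19% of all genes. MCM5 (log2 difference -0.96, SE 0.14, limma adjusted p = 0.00111), E2F1 (-0.92, SE 0.10, adjusted p = 0.000202) and UHRF1 (-0.77, SE 0.078, adjusted p = 0.000133) differed most. They were followed by MCM2 (-0.68), CDC45 (-0.67), MCM6 (-0.67), CDC6 (-0.67) and CCNE2 (-0.66). By role, 9 of 11 genes of the helicase and its loading were lower in the knockdown, 3 of 5 of CDC45 and GINS, 4 of 4 of chromatin and checkpoint, 3 of 9 of the clamp and lagging strand, and 0 of 4 of nucleotide supply. RFC3, RFC4 and RRM1 had nearly the same levels in both groups, with differences of 0.05, -0.06 and 0.03. The 95% intervals of these 3 differences were -0.16 to 0.26, -0.22 to 0.10 and -0.13 to 0.20.

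TNF-α alone changed none of the 39 genes at an adjusted p under 0.05. Against medium, 0 rose and 0 fell, where 3.22% of all genes rose and 0.885% fell. At an unadjusted p under 0.05, 3 were lower and 0 higher, and 5.92% of all genes were lower by that rule. In 5 of the 39 genes every TNF-α library lay below every medium library, against 8.74% of all genes, and 0 met the DEG threshold, against 2.73% of all genes. The median difference was -0.07. POLE2 had the smallest p and read 4.57, 4.71 and 4.87 FPKM in medium and 3.59, 3.77 and 3.59 FPKM with TNF-α, a difference of -0.36 (SE 0.099, limma adjusted p = 0.0680). MCM3 (-0.20, adjusted p = 0.178), ORC1 (-0.23, adjusted p = 0.254) and RFC5 (-0.22, adjusted p = 0.361) followed. In medium, MCM6 read 30.5, 28.4 and 26.6 FPKM, PCNA 81.2, 75.5 and 80.1 FPKM, and E2F1 32.4, 35.6 and 33.6 FPKM, each overlapping its TNF-α range.

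The wider set of replication factors moved less. In the knockdown against TNF-α, 8.08% of all genes fell and 9.35% rose. Of 38 other replication factors, 10 (26.3%) fell there and 0 rose, with a median difference of -0.21. They included TIPIN, of the fork protection complex (-0.81, SE 0.11, limma adjusted p = 0.000487), the nuclease and helicase DNA2 (-0.58), the polymerase α subunit POLA2 (-0.57) and the MCM-binding protein MCMBP (-0.52). Of 23 other S-phase genes that were tested, 12 (52.2%) fell and 0 rose, with a median of -0.45. CDCA7 (-1.04, SE 0.10, adjusted p = 4.05e-05), DTL, whose product targets CDT1 for degradation (-1.01), the uracil-DNA glycosylase gene UNG (-0.96) and WDR76 (-0.87) differed most. With 5-OH-TMT, 0 genes of either list passed the adjusted test. At an unadjusted p under 0.05, 13 of 38 and 16 of 23 were lower, against 10.5% of all genes. The medians there were -0.19 for the other replication factors and -0.36 for the other S-phase genes, beside -0.24 for the 39 genes. The lower levels with 5-OH-TMT were thus not particular to the 39 genes.

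Of 30 mitotic genes, 0 fell in the knockdown against TNF-α and 3 rose, a share near the 9.35% of all genes that rose. At an unadjusted p under 0.05 in limma, 11 of the 30 were higher and 0 lower, where 2823 of all 18079 genes were higher. Without overlap, 12 were higher and 1 lower, against 3172 and 2971 of all 18079 genes. The median difference of the mitotic genes was 0.08, against -0.66 for the 39 genes. MKI67, the proliferation antigen Ki-67, read 22.1, 21.1 and 14.5 FPKM with TNF-α and 26.8, 26.2 and 25.2 FPKM in the knockdown, a rise of 0.46 (SE 0.13, limma adjusted p = 0.0318). KIF20A and KIF2C, mitotic kinesins, rose by 0.25 and 0.22. Against 5-OH-TMT, 14 of the 30 were higher in the knockdown and 0 lower, where 7.85% of all genes were higher, among them HMMR (0.66), TOP2A (0.62), TTK (0.62) and DLGAP5 (0.55). With 5-OH-TMT against TNF-α, 0 of the 30 passed the adjusted test. At an unadjusted p under 0.05, 13 were lower and 0 higher, where 10.5% of all genes were lower. Without overlap, 15 were lower, against 15.5% of all genes. The median of the mitotic genes there was -0.19, beside -0.24 for the 39 genes. The difference between the lists was not itself tested.

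**Figure D5:**
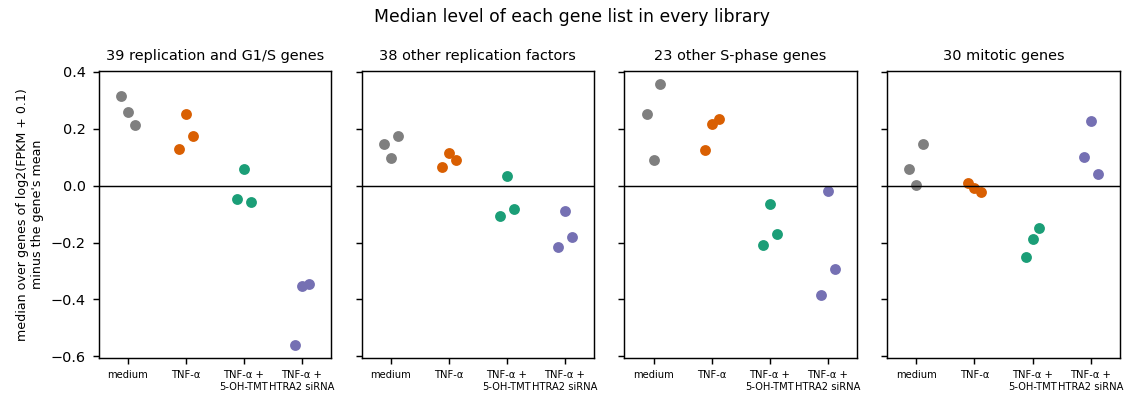
Median over the genes of 4 lists of log2(FPKM + 0.1) minus the gene's mean over the 12 libraries, 1 point per library. The 3 knockdown libraries lie at -0.56, -0.35 and -0.35 for the 39 replication and G1/S genes, and at 0.10, 0.23 and 0.04 for the 30 mitotic genes.

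Of 29 genes of the E2F, RB and G1 cyclin-CDK axis, 6 fell and 4 rose in the knockdown against TNF-α, where 8.08% of all genes fell and 9.35% rose. CDKN1A, which encodes the CDK inhibitor p21, read 35.4, 46.8 and 39.8 FPKM in medium and 60.8, 57.3 and 57.6 FPKM with TNF-α. It read 84.4, 84.0 and 91.7 FPKM with 5-OH-TMT and 112, 104 and 118 FPKM in the knockdown, so that no group overlapped another. CDKN1A rose with TNF-α by 0.53 (SE 0.092, limma adjusted p = 0.00500) and in the knockdown against TNF-α by 0.92 (SE 0.092, adjusted p = 5.49e-05), and differed by 0.56 with 5-OH-TMT (adjusted p = 0.0531). CDKN2B, the gene of the CDK4/6 inhibitor p15, read 3.44, 2.17 and 3.15 FPKM with TNF-α and 8.53, 8.14 and 7.71 FPKM in the knockdown, a rise of 1.47 (SE 0.15, adjusted p = 6.94e-05). CDC25A, the phosphatase that activates CDK2, fell by 0.83, and the pocket protein gene RBL1 by 0.77. CCND1, the gene of cyclin D1, rose with TNF-α by 0.56 (SE 0.084, adjusted p = 0.00197) and differed by -0.07 in the knockdown (adjusted p = 0.604). RB1 differed by -0.02 there (adjusted p = 0.948).

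The size of the change was also read against the promoter motif. In the knockdown against TNF-α, 17 of the 19 genes with a match fell, with a median of -0.67 and a range from -1.06 to -0.16. Of the 15 genes whose window held no match, 13 fell, with a median of -0.54 and a range from -0.84 to -0.18. The ranges overlapped almost wholly. LIG1 and CDT1, which hold a match, did not pass the test, and neither did TK1 and CCNE1, whose windows hold none. ORC1 fell and its window holds none. In the knockdown against the Bufotenidine libraries, 11 of the 19 genes with a match passed as lower, with a median of -0.46. Of the 15 genes without a match, 7 passed as lower, with a median of -0.31. The difference between genes with and without a match was not tested. A match was found in 6 of the 30 windows of the other replication factors, 9 of the 19 of the other S-phase genes and 3 of the 25 of the mitotic genes.

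Some markers of other cell types moved with the knockdown. COL1A1, 1 of 4 fibroblast markers, read 1.24, 0.974 and 1.31 FPKM with TNF-α and 3.21, 2.60 and 2.86 FPKM in the knockdown, while DCN was at 0 in every library. The sum of the 4 ranged from 1 to 1.32 FPKM with TNF-α and from 2.60 to 3.21 FPKM in the knockdown. CDH5, 1 of 3 endothelial markers, read 1.20, 1.48 and 1.29 FPKM with TNF-α and 3.34, 2.02 and 3.01 FPKM in the knockdown, and the 3 summed to 1.42 to 1.57 and 2.21 to 3.62 FPKM. CDH5 was already higher with TNF-α than in medium, with 268, 280 and 293 reads against 74, 57 and 72. The 3 immune markers summed to at most 0.727 FPKM in any library and CD3E was at 0, but CD14 rose by 1.41 (SE 0.35, limma adjusted p = 0.0163), from 0.145, 0.0680 and 0.0711 FPKM to 0.294, 0.309 and 0.727 FPKM. These CD14 values rest on few reads, 10, 4 and 5 with TNF-α and 20, 21 and 50 in the knockdown, beside 33, 14 and 28 in medium. Of the basal and squamous markers, KRT5 rose by 0.41 (adjusted p = 0.0140) and TP63 fell by 0.34 (adjusted p = 0.0318). Of the epithelial markers, KRT19 rose by 0.77 (adjusted p = 0.00440) and CDH1 by 0.40 (adjusted p = 0.00108). KRT19 had only 182, 154 and 181 reads with TNF-α and 367, 282 and 286 in the knockdown. The other 3 (EPCAM, KRT8 and KRT18) had lower means, by at most 0.18, and did not pass. The median of the 5 was -0.02. Their part in the fall of the replication genes was not tested. Without knockdown library 2, whose mitochondrial share was lowest, 33 of the 39 genes fell against TNF-α, and without TNF-α library 3, 31 fell. Of all genes, 18.5% and 13.1% were called in those fits, in either direction.

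The strand setting of the read counting is not given in the sources used here. In GENCODE 29, 19 of the 39 genes share bases with a gene on the opposite strand, such as TYMS with ENOSF1 over 3255 bases and CCNE2 with INTS8 over 1977 bases. Reads from bases shared by such pairs cannot be told apart without strand. A gene on the same strand shares bases with 10 of the 39, such as FADS2 with FEN1 over 4265 bases, and strand would not separate these. Whole gene spans were compared, introns included, so the shared bases are not all in exons.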

How the data were processed

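Poly(A)-selected RNA of NCM460 cells was sequenced in 12 libraries, 3 per group. The authors deposited FPKM, a level per gene length and depth, in a single table that also holds gene lengths. The submitters' processing notes name CASAVA 1.8, HISAT2 2.0.4, HTSeq 0.9.1 and hg38, and the strand setting and the test behind the study's DEGs are not given in the sources used here. All 39 genes had the same coordinates in GENCODE 29.

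FPKM multiplied by gene length gave whole reads for 100% of the values (tolerance 0.01), and the values were already on a median-of-ratios scale. In R 4.3.3 with limma 3.58.1, a group-means model of log2(FPKM + 0.1) was fitted (eBayes with trend, 8 residual degrees of freedom). It covered 18079 genes, those whose FPKM averaged 0.1 or more. Fold changes on this scale understate those of low genes. Tests were two-sided, p-values were adjusted by Benjamini-Hochberg over all genes tested, and a call was an adjusted p under 0.05. The fit was checked on simulated data. FPKM are per length, so levels were compared between genes on that scale only.

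The members and the gene lists were chosen with earlier results of these data known. Where over 16 members passed, the 8 with the largest change in each direction were named with their statistics, and where none passed, the 4 with the smallest p. Values per library were given for the 12 members of largest change and for PCNA, MCM2, RRM2, CDC6, E2F1, CCNE1 and CCNE2. From each other list at most 4 genes that passed were named, beside CCND1, CDKN1A, RB1 and MKI67. Other members named with values (CDT1, DSCC1, LIG1 and TK1, for example) were chosen after their values were seen. Alternatives were other pseudocounts (1 and 0.01), other filters, 4 other scalings or models, a fit to 2 groups, the replicate block and each library left out.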

Additional observations from a re-analysis of the deposited data

How the results depend on the processing

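Neither the medians over the 39 genes nor the differences of the members named by p or size in each comparison changed sign under the alternatives run. The other members were not followed singly. The median in the knockdown against TNF-α was -0.52 with a pseudocount of 1. For TNF-α against medium, 1 gene passed with the filter at a mean FPKM of 1 (POLE2) and 1 with quantile normalization (MCM3). With 1 library left out, 0 to 1 passed (MCM3 without medium replicate 3). Of all genes, 6.87%, 4.24% and 3.57% were called in these 3 fits, in either direction. For 5-OH-TMT against TNF-α, 2 passed with the filter at a mean FPKM of 1 (MCM6 and RFC3) and 7 in a fit to the 2 groups. With voom on the recovered reads 3 passed, and 0 with any 1 library left out. Of all genes, 1.14% were called with that filter, 5.04% in the fit to 2 groups and 1.31% with voom. In the knockdown, a fit to the 2 groups left 26 of 34 calls against TNF-α and 16 of 22 against 5-OH-TMT. Of all genes, that fit called 12.3% and 10.7%, in either direction. Leaving out 1 library gave 28 to 33 and 15 to 22 calls. Of these, 28 to 32 and 15 to 21 were among those made with all libraries. Of the members named against 5-OH-TMT, CCNE2 lost its call without a filter (adjusted p = 0.0581) and in the fit to 2 groups (adjusted p = 0.0964), as well as in 4 of the fits with 1 library left out. Against TNF-α, GINS3, PRIM1 and RRM1 lost their calls in the fit to 2 groups, with the replicate block and in several fits with 1 library left out. MCM7 and TYMS lost theirs in the fit to 2 groups and in several fits with 1 library left out. The calls of ORC6, POLA1 and RFC4 were lost in the fit to 2 groups. Those of GINS1 and RFC5 were lost without TNF-α library 2 and without knockdown library 1. The causes were not tested. No strong pairing by replicate number was seen, with correlations of same-numbered deviations from -0.366 to 0.151 over 18 pairs. Such correlations cannot show that the libraries were unpaired in culture or handling. The replicate block gave 31 and 21 calls in the knockdown against TNF-α and 5-OH-TMT and 0 in the other comparisons. Rescaling to a fixed sum of reads, added after seeing the data, gave 32 and 22. CCNE2 rests on 66 to 175 reads per library, and its level is the least precise of the 39.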
